A study of Rattus norvegicus with 20 samples.

Results

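Liver messenger RNA of rats fed any of 3 soybean diets was set against that of rats fed casein. The comparison takes in all 20 arrays of the series: 15 soybean arrays, 5 for each soybean diet, and 5 casein arrays, each from a separate rat and placed by its title. The difference reported for each gene is the mean of the 3 soybean group means minus the casein mean. It is given on the log2 scale, where a difference of 1 is a 2-fold change in signal.

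All rats were male Sprague-Dawley, 4 weeks old on arrival, and ate their diet for 21 days after 5 days of adaptation. The casein group received 200 g/kg casein. In the soybean diets casein remained part of the protein: equal parts of casein and the soybean Fukuyutaka, titled conventional cultiver soybean; 3 parts of casein to 1 part of the high-isoflavone soybean Yukipirika; or equal parts of casein and Yukipirika. They are called here the conventional, the 3:1 and the 1:1 high-isoflavone diet. The arrayed rats were those of average food intake within each diet. The labels describe the diets by protein source, and the sources used here do not state their fat, energy and isoflavone content, the hour of sampling or any fasting. The series asked how dietary soybeans and their isoflavone content act on liver mRNA. Pooling the soybean diets asks what they had in common against casein.

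The liver makes fatty acids from acetyl-CoA by a chain of enzymes that use NADPH, and makes cholesterol from the same precursor through mevalonate. The genes of both pathways are driven largely by the transcription factors SREBP-1c and SREBP-2, and the fatty acid genes also by the carbohydrate sensor ChREBP. Soybean protein has long been studied for lower blood and liver lipids in rats, and soybean isoflavones such as genistein and daidzein bind estrogen receptors and are cleared as sulfates and glucuronides.

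A probe set is the group of array probes that reads 1 transcript, and 27702 probe sets entered the comparison. The median log2 signal of an array lay between 2.43 and 2.49 on casein and between 2.43 and 2.57 on the soybean diets, a difference of 0.04 (exact two-sided permutation test over 15504 splits, p = 0.0428, adjusted p = 0.171 over 4 array measures). The 3′ minus 5′ signal of the actin control, a sign of RNA integrity, differed by 0.10 between the sides (exact permutation p = 0.480). On 2 arrays, casein replicate 5 and replicate 1 of the 3:1 diet, the lowest values stood at 0.45 and 0.47, while on the other 18 the minimum was at most -0.88. The hepatocyte markers Alb, Ttr, Apoa1 and Serpina1 were high on all arrays, with a mean log2 signal of 9.59 to 9.97, and none of the 4 passed limma (2 with an unadjusted p under 0.05).

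In the pooled comparison 593 of 27702 probe sets (2.14%) passed limma's moderated test at a Benjamini-Hochberg adjusted p under 0.05. Of these, 360 (1.3% of those tested) were higher on soybean and 233 (0.841%) were lower. The median size of a called difference was 0.53, and 53 calls reached 2-fold, 21 higher and 32 lower. Among probe sets with 1 gene symbol the largest fall was that of Pnpla3, of fat synthesis, and the largest rise that of the growth factor Gdf11. Without the 2 arrays of higher minimum, 212 probe sets were called, 202 of them among the 593. The split between directions followed the array scaling: 60.7% of calls were higher as deposited, against 43.6% after quantile normalization, 40.3% after centring each array and 31.6% after centring and scaling. None of the 593 turned its direction under any alternative.

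A stricter subset of 134 probe sets, 73 higher and 61 lower, was called in every alternative fit but centring alone, that is, under other scalings, spread models, filters and poolings and with any 1 array left out. Such calls are named stable below, and a probe set removed as dim by a filter cannot be among them. In 56 called probe sets all 15 soybean arrays lay above all 5 casein arrays, and in 43 all lay below; over all probe sets these shares were 0.209% and 0.17%. At the level of genes, with each gene read by its probe set of highest mean signal, 336 of 13462 genes (2.5%) were called, 206 higher (1.53%) and 130 lower (0.966%). The median difference over all genes was 0.03, and 43.0% of genes lay below 0. These are the backgrounds for the gene lists that follow.

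**Figure D1:**
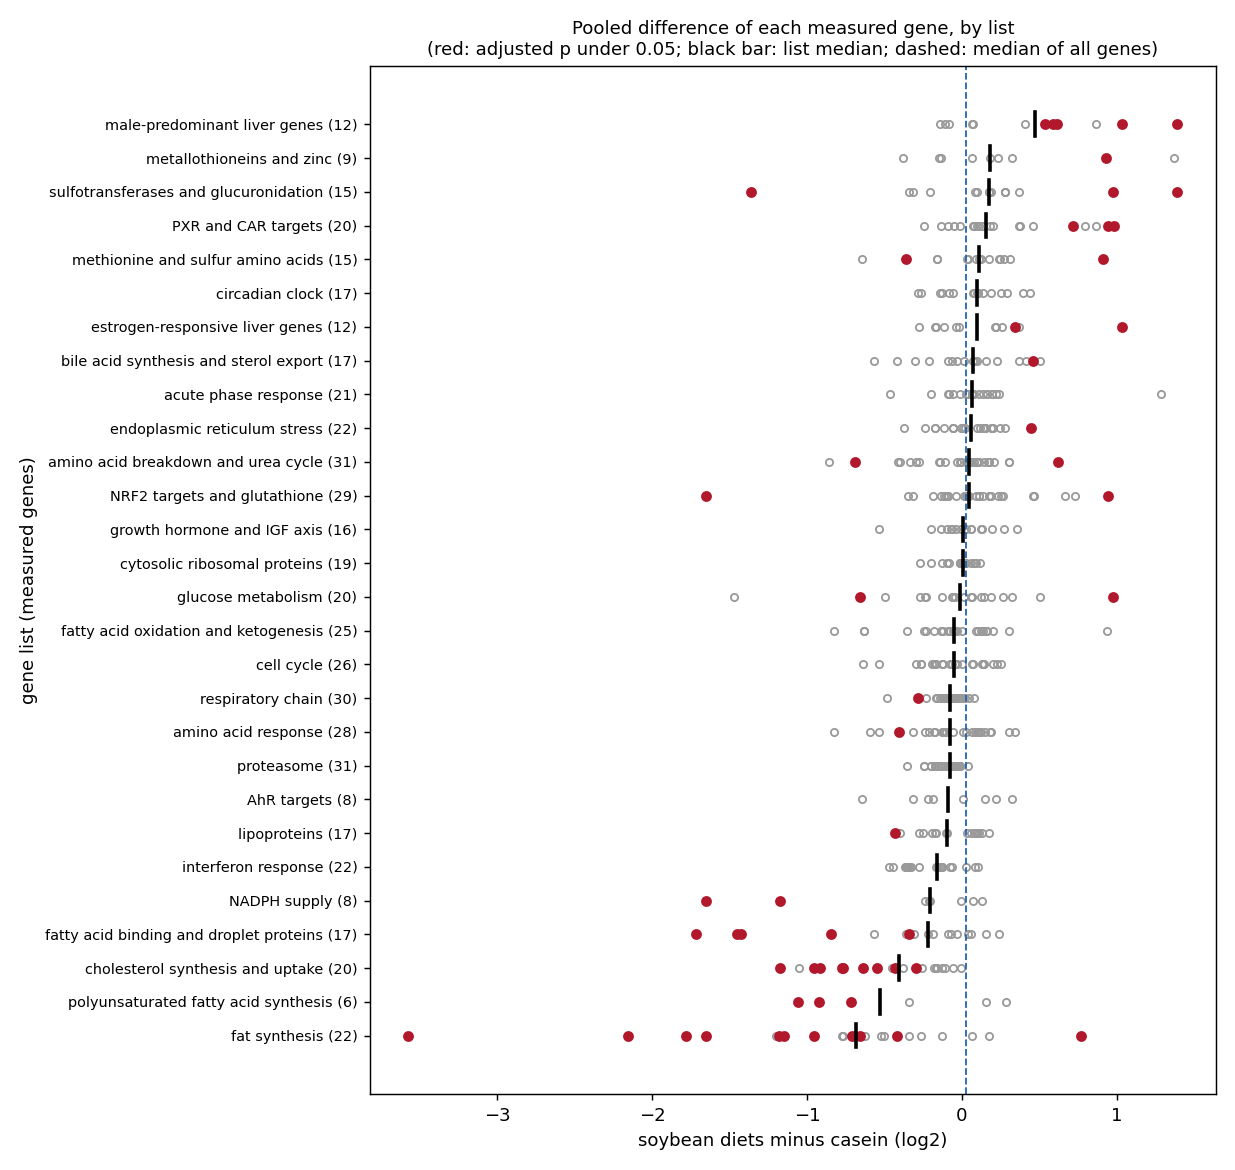
Each point is 1 measured gene of a list, placed by its soybean minus casein difference on the log2 scale; red points passed limma at an adjusted p under 0.05, black bars are list medians and the dashed line is the median of all genes. The lists of fat synthesis (median -0.68) and cholesterol synthesis (-0.41) lie left of the line with 10 and 9 red points below 0, and the male-predominant list (0.47) lies right of it.

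Genes of fatty acid synthesis were lower in the soybean-fed rats. Of 22 measured genes, 10 fell, 1 rose and 11 did not pass, with a median difference of -0.68 beside 0.03 for all genes. The 10 were Pnpla3, Elovl6, Fasn, Me1, Acaca, Thrsp, Acss2, Acacb, Pklr and Slc25a1. Enzymes among them lay at several steps, from acetyl-CoA supply (Acss2) through Acaca and Fasn to elongation (Elovl6), while Acly and Scd did not pass. The number lower was 5 without casein replicate 5, and 5 without the 2 arrays of higher minimum.

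Pnpla3 encodes a lipid droplet protein of the liver whose mRNA is known to rise with refeeding and SREBP-1c. It had the largest fall among named probe sets whose groups did not overlap. The 5 casein rats read 4.30, 4.46, 5.10, 4.82 and 5.43 on the log2 scale, and the 15 soybean rats from 0.57 to 3.83 with a median of 2.04. In this probe set every soybean rat was thus below every casein rat. The mean fell from 4.82 to 2.06, a difference of -2.76 (SE 0.41), or 6.78-fold (limma, adjusted p = 0.00121). The other 2 probe sets of Pnpla3, both brighter, differed by -3.55 (adjusted p = 0.00276) and -3.57 (adjusted p = 0.0160). In both the groups overlapped, and the call at -3.57, from the brightest probe set, was not stable.

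Elovl6, which elongates palmitate, fell by 2.15 on the log2 scale (SE 0.39, limma, adjusted p = 0.00470). Its casein values were 3.85, 4.80, 5.53, 5.12 and 4.88, and its soybean values ran from 1.49 to 3.95 with a median of 2.84. The groups met only at casein replicate 1, which lay below the highest soybean rat. A second probe set of Elovl6 fell by 2.03 (adjusted p = 0.00319).

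Acaca and Acacb encode the acetyl-CoA carboxylases, the committed step of the pathway and its mitochondrial counterpart. Acaca read 5.73, 6.47, 6.52, 6.52 and 6.4 on casein and 4.20 to 5.93 on soybean, with a median of 5.15. It differed by -1.18 (SE 0.22, limma, adjusted p = 0.00619), and its difference was nearly the same in each soybean diet, at -1.24, -1.08 and -1.24. A dimmer Acaca probe set differed by 0.02 (adjusted p = 0.941), so the call rests on 1 of 2 probe sets.

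Acacb read 3.15, 3.60, 3.53, 3.75 and 3.39 on casein and 2.37 to 3.41 on soybean, a difference of -0.71 (SE 0.10, limma, adjusted p = 0.00112). Acss2, which makes acetyl-CoA from acetate, read 6.02, 6.61, 6.4, 6.62 and 6.46 on casein and 4.90 to 6.08 on soybean. It fell by 0.96 (SE 0.14, adjusted p = 0.00144). In both genes the lowest casein value was that of replicate 1, and it lay within the soybean range. Pklr, the liver pyruvate kinase that feeds the pathway from glucose, fell by 0.66 (SE 0.13, adjusted p = 0.00749), and its second probe set by 0.99 (adjusted p = 0.00361).

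Fasn, the fatty acid synthase itself, had means of 7.76 on casein and 5.98 on soybean, a difference of -1.78 (SE 0.43, limma, adjusted p = 0.0322), which is 3.44-fold. Its call and those of Thrsp (-1.15, adjusted p = 0.0467) and Slc25a1 (-0.42, adjusted p = 0.0128) were not stable. A probe set of Scap, the escort protein of SREBPs, fell by 0.53 (SE 0.08, limma, adjusted p = 0.00144). That call was stable and the groups did not overlap, and it was chosen after its values were seen. The transcription factor genes themselves did not pass: Srebf1, the gene of SREBP-1c, differed by -0.77 (adjusted p = 0.0938), and Mlxipl, the gene of ChREBP, by -0.26 (adjusted p = 0.315). Acly (-1.20, adjusted p = 0.0659) and Scd (-0.62, adjusted p = 0.113) did not pass either. The 1 riser was Gpam, which starts glycerolipid assembly, at 0.77 (adjusted p = 0.0485); the call was lost in 15 of 20 omissions of 1 array, without the 2 arrays of higher minimum (adjusted p = 0.126), without number 1 of all diets, with soybean fitted as 1 group, without the spread trend and after quantile normalization.

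**Figure D2:**
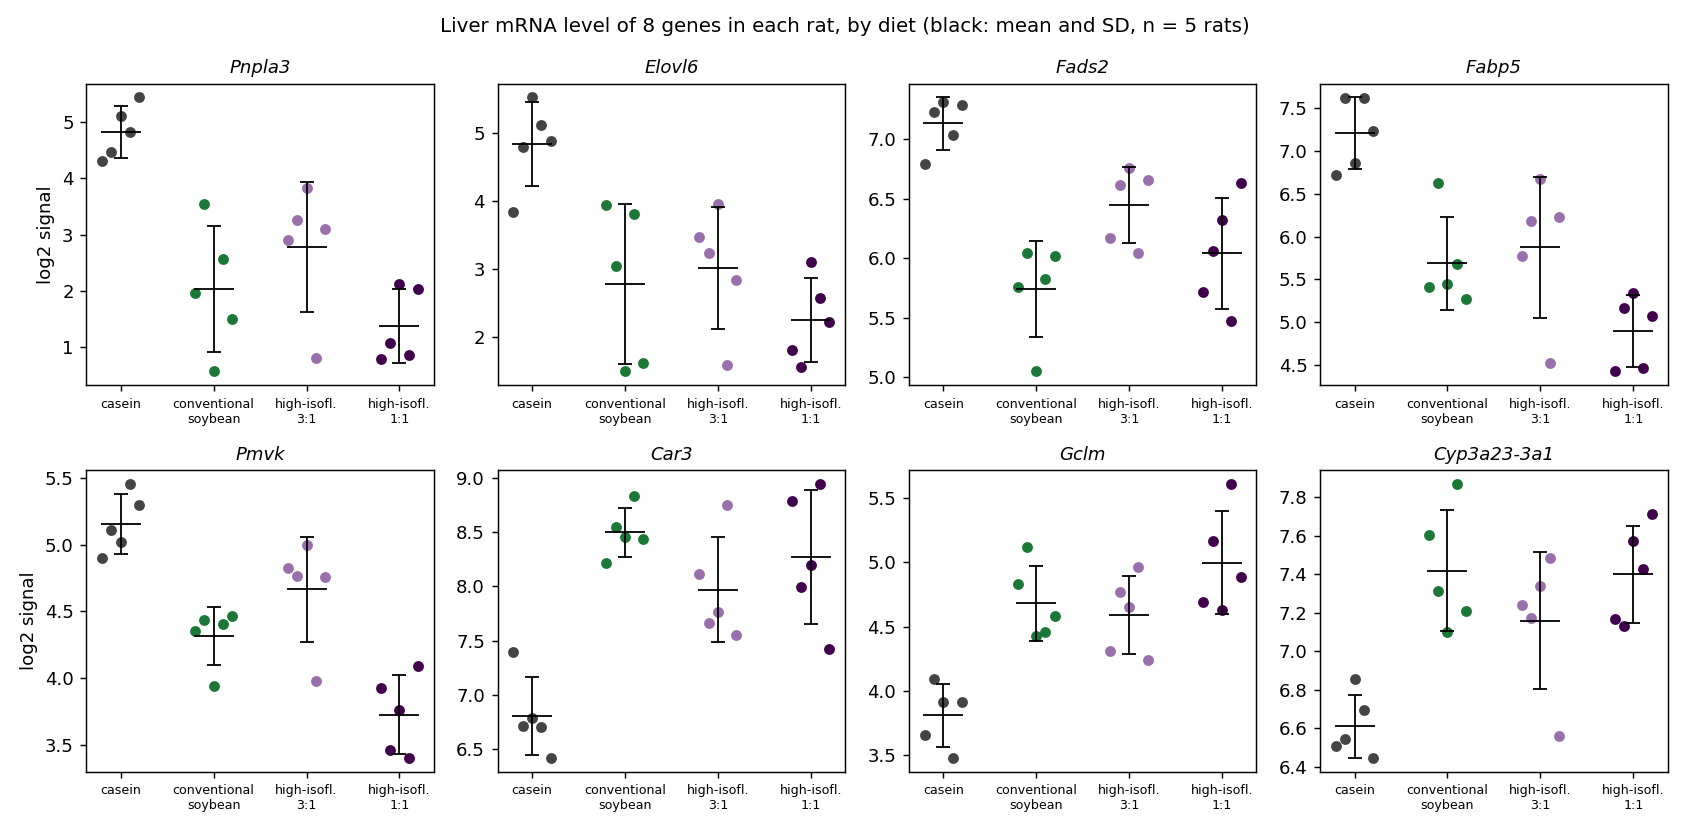
Log2 signal of 8 genes in each of 20 rats by diet, with the mean and SD of 5 rats in black. Pnpla3, Fads2 and Fabp5 lie lower in every soybean rat than in any casein rat, Car3 and Gclm lie higher in every soybean rat, and in Elovl6, Pmvk and Cyp3a23-3a1 the ranges overlap.

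The enzymes that supply NADPH were measured in 8 genes, of which 2 fell, none rose and 6 did not pass (median -0.21). Pgd, a dehydrogenase of the pentose phosphate pathway, read 5.78, 6.28, 6.36, 6.45 and 6.29 on casein and 4.28 to 5.81 on soybean. It fell by 1.17 (SE 0.17, limma, adjusted p = 0.000963), and again only casein replicate 1 reached into the soybean range. Me1, the malic enzyme, was the other, with a difference of -1.65 (SE 0.38, adjusted p = 0.0246). The Me1 call was lost without casein replicate 2, 3, 4 or 5, at adjusted p = 0.0677, 0.0628, 0.0820 and 0.0925, and without the 2 arrays of higher minimum (0.113).

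Desaturases and elongases of polyunsaturated fatty acids were lower too, with 3 of 6 measured genes called and none called higher (median -0.53). Fads2, the desaturase that opens the pathway, read 6.79, 7.23, 7.32, 7.03 and 7.29 on casein. The soybean rats ran from 5.05 to 6.76 with a median of 6.05, all below the lowest casein rat. The difference was -1.06 (SE 0.17, limma, adjusted p = 0.00251), or 2.08-fold, and it was stable. Fads1, the later desaturase, differed by -0.71 (SE 0.14, adjusted p = 0.00971) and Elovl2 by -0.92 (SE 0.21, adjusted p = 0.0229). Without the 2 arrays of higher minimum only Fads2 kept its call, with Fads1 at adjusted p = 0.0590 and Elovl2 at 0.103.

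Genes of cholesterol synthesis and uptake were lower in part. Of 20 measured genes 9 fell, 11 did not pass and none rose, the median was -0.41, and all 20 differences were below 0, beside 43.0% of all genes. The 9 ran from cytosolic thiolase to the late sterol steps: Acat2, Pmvk, Mvd, Fdps, Lss, Cyp51, Tm7sf2, Sc5d and Nsdhl. Pmvk, Tm7sf2 and Sc5d were stable. The number lower was 3 without casein replicate 4 and 5 without the 2 arrays of higher minimum.

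Pmvk, which phosphorylates phosphomevalonate, read 4.90, 5.11, 5.02, 5.45 and 5.30 on casein and 3.40 to 5.0 on soybean, with a median of 4.35. It fell by 0.92 (SE 0.14, limma, adjusted p = 0.00147), or 1.89-fold, and only casein replicate 1 lay within the soybean range. Lss, which closes the sterol ring system, read 4.28, 4.79, 4.11, 5.07 and 4.31 on casein and 2.06 to 4.02 on soybean, with no overlap. Its difference of -1.18 (SE 0.24, adjusted p = 0.0112) was not called without casein replicate 4 (adjusted p = 0.0526). The second Lss probe set fell by 0.89 (adjusted p = 0.0127).

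Tm7sf2, a sterol reductase, fell by 0.77 (SE 0.14, limma, adjusted p = 0.00619) and Sc5d, a sterol desaturase, by 0.55 (SE 0.10, adjusted p = 0.00480). Sc5d had 2 further probe sets, at -0.74 (adjusted p = 0.00671) and -0.38 (adjusted p = 0.0969). Fdps differed by -0.64 (adjusted p = 0.0158), Acat2 by -0.96 (adjusted p = 0.0178) and Mvd by -0.78 (adjusted p = 0.0181). Their regulator Srebf2 differed by -0.06 (SE 0.09, adjusted p = 0.814). Insig1, which holds SREBPs in the endoplasmic reticulum and is itself an SREBP target, differed by -1.05 (SE 0.40, adjusted p = 0.187) and did not pass.

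The promoters of the genes of this list are described next. RefSeq promoters of the GRCr8 assembly, from 250 bases before to 50 after the start, were matched by symbol for 16 of the 20 cholesterol genes. The letters of the CCAAT box, the site of the SREBP co-factor NF-Y, were searched on both strands. They occurred in 13 of 16 promoters (81.2%), beside 37.5% of 33469 RefSeq promoters of the same length, and in 11 of 17 (64.7%) for fat synthesis. A sterol element spelled TCACNCCAC was found in 0 of 16 and 0 of 17, beside 1.12% of all promoters. Of the 9 called genes 8 had a promoter, 6 of these held the box somewhere and 2 held none. Genes that did not pass held it too, among them Insig1, Srebf2 and Idi1, so the box was not particular to the called genes. Among the called genes 5 held a box in the stretch from 135 to 61 bases before the start. Of these, Nsdhl, with boxes beginning 128, 119, 91 and 65 bases before the start, is not printed. The stretch is printed for the other 4, chosen after the search, 5′ to 3′ on the gene's strand, with CCAAT or its complement ATTGG in capitals. They lie at chr2:176804877-176804951, chr20:12118291-12118365, chr8:51538338-51538412 and chr1:212789602-212789676, all on the minus strand.
Fdps: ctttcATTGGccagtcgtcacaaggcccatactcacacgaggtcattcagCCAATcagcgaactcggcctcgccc
Lss: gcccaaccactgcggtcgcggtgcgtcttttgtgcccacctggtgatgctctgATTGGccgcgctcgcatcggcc
Sc5d: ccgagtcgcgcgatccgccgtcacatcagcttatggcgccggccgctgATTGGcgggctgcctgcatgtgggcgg
Tm7sf2: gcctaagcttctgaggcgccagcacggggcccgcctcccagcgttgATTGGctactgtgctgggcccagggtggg

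In these 4 a box begins between 89 and 82 bases before the start, and Fdps holds another further upstream. A match to these letters describes the sequence and does not show binding.

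Fatty acid binding and lipid droplet proteins included some of the smallest p-values. Of 17 measured genes 5 fell and none rose (median -0.22): Fabp2, Ddhd1, Fabp5, Plin3 and Fabp1. Fabp2, Ddhd1 and Fabp5 were stable and their groups did not overlap. The count was 3 without casein replicate 1, 3, 4 or 5, replicate 2 of the 1:1 diet, or the 2 arrays of higher minimum.

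Fabp2, best known as the intestinal fatty acid binding protein, read 3.89, 3.27, 3.51, 3.38 and 3.70 on casein. On soybean it ran from 1.56 to 2.67 with a median of 2.11. The difference was -1.45 (SE 0.15), or 2.73-fold, with an adjusted p of 6.84e-05 (limma). It was -1.43, -1.21 and -1.70 in the conventional, 3:1 and 1:1 diets.

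Fabp5, the epidermal form of the same family, read 6.71, 7.61, 6.85, 7.61 and 7.23 on casein and 4.43 to 6.67 on soybean, with a median of 5.41. It fell by 1.72 (SE 0.26, limma, adjusted p = 0.00155), or 3.29-fold. Ddhd1, a phospholipase that acts on phosphatidic acid, read 3.44, 3.64, 3.58, 3.45 and 3.81 on casein and 1.04 to 3.32 on soybean. It fell by 1.43 (SE 0.19, adjusted p = 0.000482), at -0.67 in the 3:1 diet beside -1.72 and -1.89 in the conventional and 1:1 diets. Plin3, a droplet coat protein, differed by -0.85 (SE 0.21, adjusted p = 0.0351), a call lost in 6 of 20 omissions of 1 array and without the 2 arrays of higher minimum (adjusted p = 0.144).

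Bile acid and lipoprotein genes mostly did not move past the test. Of 17 genes of bile acid synthesis and sterol export, 1 rose and none fell (median 0.07). Baat, which joins bile acids to taurine or glycine, read 7.77, 7.55, 7.64, 7.70 and 7.61 on casein and 7.94 to 8.53 on soybean, every soybean rat above every casein rat. It rose by 0.46 (SE 0.08, limma, adjusted p = 0.00507) and lost its call after arrays were centred and scaled (adjusted p = 0.136). Cyp7a1, the rate-limiting enzyme of bile acid synthesis, differed by 0.37 (SE 0.38, adjusted p = 0.691). Of 17 lipoprotein genes, 1 fell: Lipc, the hepatic lipase, by 0.43 (SE 0.09, adjusted p = 0.0115).

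None of 25 genes of fatty acid oxidation and ketogenesis passed limma in the pooled comparison, 9 of them having an unadjusted p under 0.05, 4 higher and 5 lower. The median was -0.05. Crot differed by 0.94 (adjusted p = 0.0919) and Fgf21 by -0.83 (adjusted p = 0.130). Cpt1a, the entry step of mitochondrial oxidation, differed by -0.63 (adjusted p = 0.18).

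Several genes that are male-predominant in rat liver rose. Of 12 measured, 5 rose and none fell: Car3, Cyp2c13, Mup5, Sult1c2a and Hsd3b5, with a list median of 0.47. The count was 3 without the 2 arrays of higher minimum and 3 after arrays were centred and scaled. Other male-predominant genes did not pass, among them Cyp2c11, the chief male cytochrome P450, at -0.11 (SE 0.09, adjusted p = 0.615). None of 16 genes of the growth hormone and IGF axis, which sets this sex pattern, passed limma, 1 having an unadjusted p under 0.05, and Stat5b differed by 0.06 (adjusted p = 0.839).

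Car3, carbonic anhydrase III, is an abundant protein of male rat liver. Its probe set with the larger change read 7.39, 6.72, 6.79, 6.71 and 6.42 on casein and 7.43 to 8.94 on soybean, with a median of 8.21. The lowest soybean rat was just above the highest casein rat. The difference was 1.44 (SE 0.20, limma, adjusted p = 0.000963), or 2.72-fold, and the other probe set differed by 1.03 (SE 0.13, adjusted p = 0.000407).

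Cyp2c13 rose by 0.61 (SE 0.11, limma, adjusted p = 0.00361) with overlapping groups, from 7.83 to 8.49 on casein and from 8.15 to 8.99 on soybean. Its probe set can read related P450 transcripts. Mup5, a major urinary protein of a multigene family, rose by 0.59 (SE 0.11, adjusted p = 0.00658), every soybean rat above every casein rat, and its 2 other probe sets by 0.95 and 0.68. Sult1c2a, a sulfotransferase, read 4.48, 3.37, 3.01, 3.13 and 2.70 on casein and 3.79 to 5.72 on soybean, a rise of 1.39 (SE 0.26, adjusted p = 0.00665). Its call was lost without the 2 arrays of higher minimum (adjusted p = 0.0511).

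In the estrogen-responsive list 2 of 12 genes rose, Car3 again and Agt, the angiotensinogen gene, at 0.34 (SE 0.07, limma, adjusted p = 0.0105), and none fell (median 0.10). Agt was not called with arrays centred and scaled (adjusted p = 0.202), without casein replicate 5 (adjusted p = 0.0518) and without the 2 arrays of higher minimum (adjusted p = 0.0507).

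Genes of foreign compound metabolism rose in small numbers. Of 20 targets of the nuclear receptors PXR and CAR, 3 rose and none fell (median 0.16): Cyp3a23-3a1, Cyp3a18 and the uptake transporter Slco1a4. Only 1 was called without casein replicate 1, 4 or 5, without the 2 arrays of higher minimum, or without number 1 of all diets. Cyp3a23-3a1 read 6.51, 6.55, 6.86, 6.69 and 6.45 on casein and 6.56 to 7.87 on soybean, a rise of 0.72 (SE 0.13, limma, adjusted p = 0.00593). Its soybean median of 7.31 lay above all casein rats, although the ranges overlapped. Cyp3a18 differed by 0.94 (adjusted p = 0.0196) and Slco1a4 by 0.98 (adjusted p = 0.0413), at adjusted p = 0.116 and 0.157 without the 2 arrays of higher minimum. None of 8 AhR targets passed limma (3 with an unadjusted p under 0.05), and Cyp1a2 differed by -0.64 (adjusted p = 0.171).

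Among 15 genes of sulfation and glucuronidation, which clear isoflavones and steroids, 2 rose and 1 fell (median 0.18). Ugp2, which makes UDP-glucose, rose by 0.97 (SE 0.19, limma, adjusted p = 0.00839), and the other riser was Sult1c2a. Neither was called without the 2 arrays of higher minimum, Ugp2 then standing at adjusted p = 0.0642. Sult4a1, a sulfotransferase best known from brain, fell by 1.36 (SE 0.17, adjusted p = 0.000332), or 2.56-fold. It read 2.63, 3.20, 3.76, 3.78 and 3.40 on casein and 1.18 to 2.49 on soybean, without overlap. A probe set of the glucuronosyltransferase gene Ugt2b15, outside this count, was chosen after its values were seen. Ugt2b15 rose by 0.64 (SE 0.15, limma, adjusted p = 0.028), a call that was not stable and had overlapping groups.

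Of 29 NRF2 targets and glutathione genes, Gclm rose, Me1 fell and 27 did not pass (median 0.04). Gclm, the modifier subunit of glutamate-cysteine ligase, the entry enzyme of glutathione synthesis, read 3.65, 4.09, 3.91, 3.48 and 3.91 on casein. On soybean it ran from 4.24 to 5.61 with a median of 4.70, every rat above the highest casein rat. The rise was 0.95 (SE 0.15, limma, adjusted p = 0.00237), or 1.93-fold, and was stable. Its partner subunit Gclc differed by 0.03 (SE 0.19, adjusted p = 0.955), Nfe2l2, the NRF2 gene, by -0.04 (adjusted p = 0.926) and Gstm3 by 0.73 (adjusted p = 0.0756).

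The Gclm promoter holds 1 match to an antioxidant response element spelled TGACNNNGC, searched on both strands, and is shown for that reason. The letters occurred in 8 of 26 matched promoters of the list (30.8%) and in 5 of 17 of the fat synthesis list (29.4%), beside 12.1% of all RefSeq promoters. The stretch lies at chr2:213031945-213031989 on the plus strand, 190 to 146 bases before the start, with the match, which reads on the other strand, in capitals.
Gclm: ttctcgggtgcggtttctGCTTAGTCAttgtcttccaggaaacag

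Metallothioneins and zinc genes gave 1 riser of 9 (median 0.18). Mt1 read 3.42, 2.75, 2.69, 3.0 and 3.02 on casein and 2.91 to 4.94 on soybean, a rise of 0.93 (SE 0.22, limma, adjusted p = 0.0279). The call was lost without casein replicate 2, 3, 4 or 5, with soybean fitted as 1 group, and without the 2 arrays of higher minimum (adjusted p = 0.0613). Mt2A differed by 1.37 (SE 0.43, adjusted p = 0.0993), at 2.08 and 1.75 in the conventional and 1:1 diets and 0.28 in the 3:1 diet. The letters of a metal response element, TGCNCNC, were in 5 of 5 matched promoters of the list and in 49.6% of all promoters.

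Amino acid genes, which a change of dietary protein could touch, moved little as groups. Of 31 genes of amino acid breakdown and the urea cycle, 1 rose and 1 fell (median 0.04). Hal, which starts histidine breakdown, read 4.87, 4.75, 4.89, 4.65 and 4.86 on casein and 4.89 to 5.93 on soybean, a rise of 0.62 (SE 0.11, limma, adjusted p = 0.00415). The ranges touched only at their edges. Bckdk, the kinase that holds back breakdown of branched-chain amino acids, fell by 0.69 (SE 0.15, adjusted p = 0.0160), a call lost without casein replicate 4 (adjusted p = 0.0682) and without the 2 arrays of higher minimum (adjusted p = 0.0632).

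In 15 genes of methionine and sulfur amino acids, Csad, which makes the taurine precursor hypotaurine, rose by 0.91 (SE 0.21, limma, adjusted p = 0.0280) and Suox, the sulfite oxidase, fell by 0.36 (SE 0.08, adjusted p = 0.0163). The Csad call was lost without casein replicate 2 (adjusted p = 0.107) or 4 (adjusted p = 0.0980), and neither was called without the 2 arrays of higher minimum (Csad 0.0627, Suox 0.0732). The Suox call was also lost without casein replicate 2, 4 or 5. Of 28 genes of the amino acid response, the program that follows lack of an amino acid, only Aldh1l2 was called, at -0.41 (SE 0.10, adjusted p = 0.0303). That call was lost without casein replicate 1, 2, 3 or 5, without number 1 of all diets, with soybean fitted as 1 group, and without the 2 arrays of higher minimum (adjusted p = 0.124). Atf4, the central transcription factor of the response, differed by -0.12 (adjusted p = 0.644). A probe set of Eif2ak4, the gene of the kinase that starts the response, was not in this count and was chosen after its values were seen. It fell by 0.57 (SE 0.10, limma, adjusted p = 0.00468), a stable call without overlap.

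In glucose metabolism 1 of 20 genes rose, Ugp2, and 1 fell, Pklr, both described above (median -0.02). Of 22 genes of endoplasmic reticulum stress, Sel1l rose and 21 did not pass. Sel1l, which brings misfolded proteins to degradation, read 3.26, 3.38, 3.27, 3.43 and 3.24 on casein and 3.44 to 4.20 on soybean. Its rise of 0.45 (SE 0.08, limma, adjusted p = 0.00371) was stable and the groups did not overlap.

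Read by its probe set of highest mean signal, no gene passed limma in the lists of the circadian clock (17 genes, 2 with an unadjusted p under 0.05), the acute phase (21, 4), the interferon response (22, 3), the cell cycle (26, 3), the proteasome (31, 4) and cytosolic ribosomal proteins (19, 1). Another probe set of the interferon gene Stat2 was called at -0.45 (adjusted p = 0.0353). A probe set of the ribosomal protein gene Rpl26, outside this count, was called at -0.49 (adjusted p = 0.0357), and neither call was stable. In the respiratory chain 1 of 30 was called, Ndufa4, at -0.29 (SE 0.07, adjusted p = 0.0329). It was not called without casein replicate 1, 2, 4 or 5, without number 1 of all diets, without the spread trend, with soybean fitted as 1 group (adjusted p = 0.118) or without the 2 arrays of higher minimum (adjusted p = 0.112). Differences were nonetheless on 1 side in some of these lists: 30 of 31 proteasome genes, 26 of 30 respiratory chain genes and 19 of 22 interferon genes lay below 0, at medians of -0.08, -0.08 and -0.16. Beside these, 43.0% of all genes lay below 0. The genes of a list were read on the same 20 arrays, whose median signal differed by 0.04 between the sides, and the common direction was not tested. The acute phase gene A2m differed by 1.29 (SE 0.40, adjusted p = 0.0975). Further subunits of cytochrome oxidase and ATP synthase had called probe sets outside the respiratory chain count, chosen after their values were seen. Cox6c fell by 0.52 (SE 0.09, limma, adjusted p = 0.00311) and Atp5mk by 0.53 (SE 0.08, adjusted p = 0.00245), both stable and without overlap. Cox7c (-0.37, adjusted p = 0.0405) and Cox8a (-0.22, adjusted p = 0.0499) were lower and COX1 (0.27, adjusted p = 0.0339) higher, none stable.

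Irrespective of the lists, the 10 highest and 10 lowest differences were taken among stable calls with 1 gene symbol whose groups did not overlap; probe sets without a symbol, some with larger differences, are not named. The falls were in Pnpla3, Wfdc21, Fabp5, Fabp2, Ddhd1, Sult4a1, Fads2, Rab33a, Epcam and Secisbp2l, from -2.76 to -0.76. The rises were in Cdcp1, Car3, Edil3, Kcna5, Nat8, Gclm, Ddah1, Ppp1r16a, Tekt4 and Ccdc9, from 1.57 to 0.68. Several of these probe sets were dim on 1 side. The soybean mean lay below the median signal of every array in Fabp2, Ddhd1, Sult4a1, Epcam and the probe set of Pnpla3 taken here. The casein mean did so in Edil3, Kcna5, Nat8 and Ccdc9.

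Wfdc21, a small secreted protein of the whey acidic protein family, fell most evenly. It read 6.0, 6.80, 6.10, 6.63 and 6.74 on casein and 3.77 to 5.35 on soybean, with a median of 4.60. The difference was -1.80 (SE 0.21, limma, adjusted p = 0.000158), or 3.48-fold, and it was -1.78, -1.73 and -1.89 in the conventional, 3:1 and 1:1 diets. Acaca, Cdcp1, Sez6 and Car3 were the other 4 genes of 2-fold change or more with the most even differences. Sez6, a seizure-related gene of neurons, rose by 1.15 (SE 0.20, adjusted p = 0.00325), at 1.32, 1.07 and 1.05.

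Cdcp1, a transmembrane glycoprotein, read 3.16, 2.48, 3.36, 3.03 and 2.03 on casein and 3.60 to 5.71 on soybean. Its rise of 1.57 (SE 0.29, limma, adjusted p = 0.00557) was not shared by its other probe set, at 0.22 (adjusted p = 0.297). Ppp1r16a and Ccdc9, at 0.79 and 0.68, likewise each had another probe set that did not pass, at 0.14 (adjusted p = 0.325) and 0.07 (adjusted p = 0.816). Ddah1, which breaks down the nitric oxide synthase inhibitor dimethylarginine, had a very narrow casein range, 4.10 to 4.30, and ran from 4.54 to 5.33 on soybean. It rose by 0.83 (SE 0.09, adjusted p = 0.000158).

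Edil3, an integrin-binding matrix protein, ran from 1.02 to 1.67 on casein and 1.83 to 3.94 on soybean, a rise of 1.37 (SE 0.23, limma, adjusted p = 0.00325). Kcna5, a voltage-gated potassium channel, rose by 1.18 (SE 0.19, adjusted p = 0.00275), and Nat8, an acetyltransferase of cysteine conjugates, by 1.14 (SE 0.22, adjusted p = 0.00823). Rab33a, a small GTPase, had 5 casein values between 3.35 and 3.60 and soybean values of 2.13 to 3.35, and fell by 0.85 (SE 0.15, adjusted p = 0.00373). Secisbp2l fell by 0.76 (SE 0.14, adjusted p = 0.00696) and its other probe set by 0.81 (adjusted p = 0.0295).

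**Figure D3:**
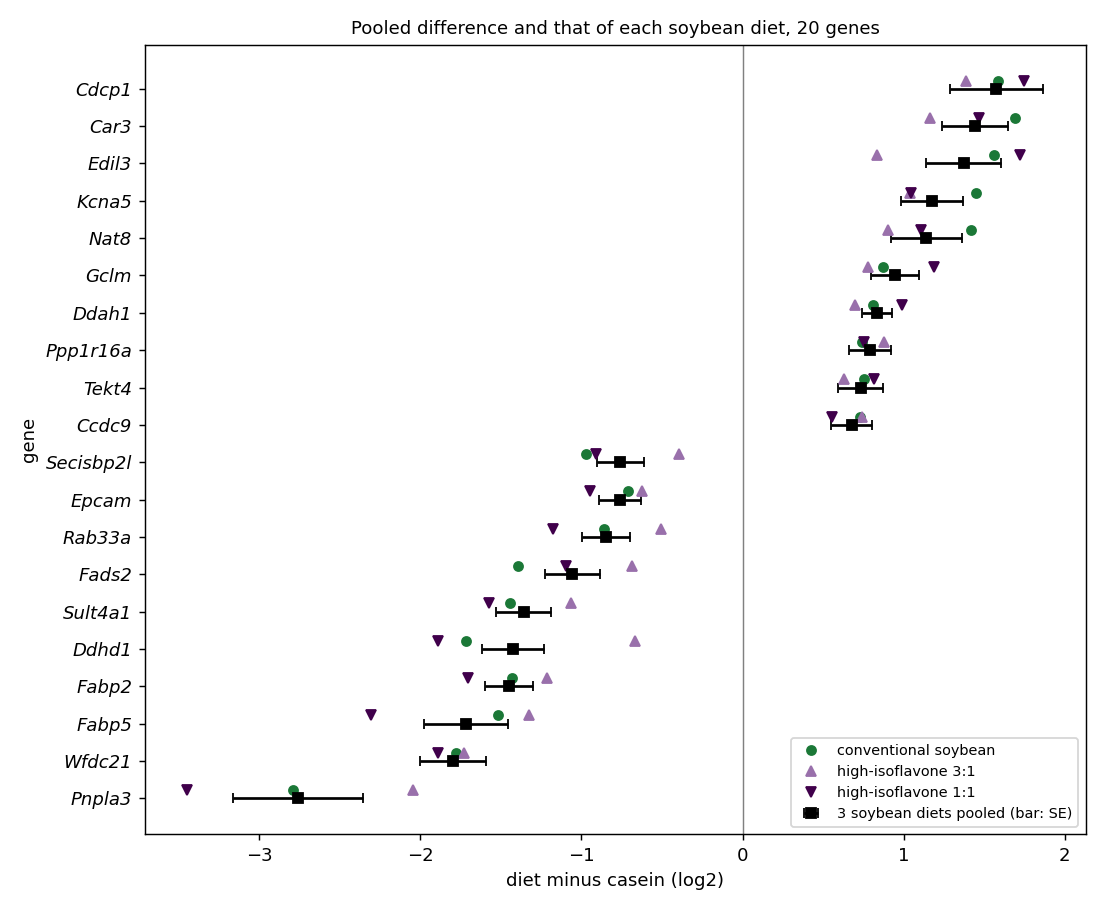
Soybean minus casein differences on the log2 scale for the 20 genes with the largest stable, non-overlapping changes; black squares are the pooled difference with its SE and coloured marks are each soybean diet minus casein. Pooled differences run from -2.76 in Pnpla3 to 1.57 in Cdcp1, and the 3 coloured marks of a gene share the 5 casein arrays.

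How far the 3 soybean diets departed from casein was compared next. The 3 differences share the casein arrays, so they are given side by side. Among called rises the median difference was 0.57 in the conventional, 0.43 in the 3:1 and 0.56 in the 1:1 diet. Among called falls it was -0.58, -0.45 and -0.70. Of the 3 diets, the 3:1 diet, with the least soybean, was closest to casein in 401 of the 593 called probe sets (67.6%), beside 45.3% of all probe sets. It was closest in 16 of 22 genes of fat synthesis and 17 of 20 of cholesterol synthesis. Tested alone against casein, the conventional diet gave 453 calls (1.64%), the 3:1 diet 11 (0.0397%) and the 1:1 diet 613 (2.21%), and the pooled difference had an SE 0.816 times that of a single diet.

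Whether the soybean diets differed among themselves was tested with limma's moderated F-test on their 3 means, which does not use the casein level. It called 11 of 27702 probe sets (0.0397%), and all 11 were also called in the pooled comparison. Only 1 was called without number 1 of all diets, and 3 to 32 without 1 soybean array. Of the 593 pooled calls, 167 (28.2%) had an unadjusted F-test p under 0.05, beside 9.41% of all probe sets. Both tests share 1 estimate of spread for each probe set, and a small spread favours both calls. These overlaps therefore do not show by themselves that the pooled calls differ more among the soybean diets. No gene of fat or cholesterol synthesis was among the 11, but at a share of 0.0397% lists of this size would rarely hold one. Of these genes, 4 of 22 in fat synthesis and 3 of 20 in cholesterol synthesis had an unadjusted F-test p under 0.05. Pmvk had an F-test adjusted p of 0.0784 (limma), with differences from casein of -0.84, -0.49 and -1.43 in the conventional, 3:1 and 1:1 diets. In fatty acid oxidation, 12 of 25 genes had an unadjusted p under 0.05 and none an adjusted one, with list medians against casein of -0.27, -0.02 and 0.09 in the conventional, 3:1 and 1:1 diets.

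The 8 genes named among the 11 were lower on the high-isoflavone diets and near casein on the conventional diet. Over the 11, the median difference from casein was -0.16 in the conventional, -0.71 in the 3:1 and -1.27 in the 1:1 diet. They were Cox7b2 and Cox7b, subunits of cytochrome oxidase, Polr2k, a small subunit of the RNA polymerases, the transcription coactivator Sub1, the mitochondrial import factor Timm8b, the mitochondrial RNA-binding protein Slirp, the trafficking gene Trappc2b, and 4930522L14Rikl. For these genes the pooled difference averages unlike diets. Each lost its pooled call when the 15 soybean arrays were fitted as 1 group. That fit counts differences among the soybean diets as spread, so for genes chosen by the F-test the loss is not separate evidence.

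Cox7b2 read 5.17, 5.43, 5.38, 5.40 and 5.20 on casein and 5.19, 5.09, 5.14, 5.31 and 5.19 on the conventional diet. It read 4.69, 4.76, 4.48, 4.42 and 4.22 on the 3:1 diet and 4.28, 4.15, 4.42, 4.16 and 4.37 on the 1:1 diet. All 10 high-isoflavone rats were below all 10 others. The F-test gave an adjusted p of 0.000484 (limma) and the highest over 20 omissions of 1 array was 0.00433.

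Polr2k had means of 4.98 on casein, 4.82 on the conventional diet (SD 0.13, n = 5), 4.24 on the 3:1 (SD 0.36, n = 5) and 3.69 on the 1:1 diet (SD 0.30, n = 5). Its F-test adjusted p was 0.0120 (limma), and it was not called without number 1 of all diets (0.0645). Cox7b had means of 7.57, 7.34, 6.73 and 6.30 in the same order (adjusted p = 0.0140). The F-test calls of the other 6 named genes were lost in 2 to 12 of the 20 omissions. Another probe set of Sub1 differed from casein by -0.31 (adjusted p = 0.378) and another of Slirp by 0.26 (adjusted p = 0.304) in the pooled comparison, and neither passed.

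**Figure D4:**
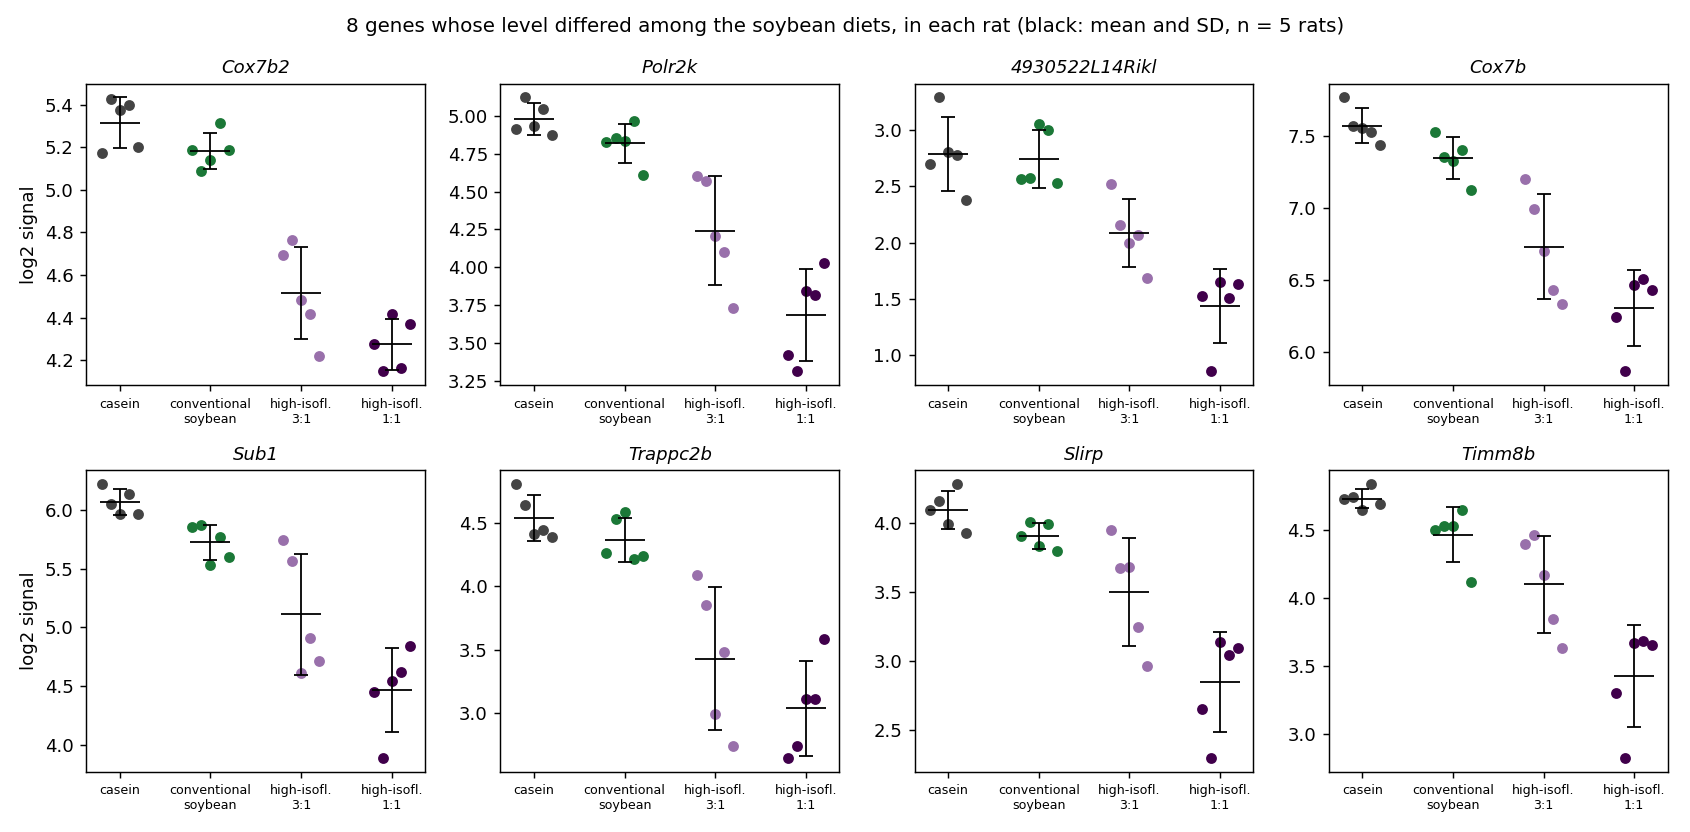
Log2 signal of the 8 named genes called by the F-test among the soybean diets, in each of 20 rats by diet, with the mean and SD of 5 rats in black. Cox7b2 means are 5.32 on casein and 5.18, 4.52 and 4.27 on the conventional, 3:1 and 1:1 diets, and the other 7 genes have the same order of means.

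Liver tissue holds several cell types, and in bulk RNA fewer cells of a type and less RNA per cell cannot be told apart. None of the markers of Kupffer cells (9 genes), endothelial cells (6), stellate cells (7), lymphocytes (6), erythroid cells (4), fat tissue (2) or pancreas (7) passed limma, with 2, 0, 1, 0, 0, 0 and 0 at an unadjusted p under 0.05. The mean log2 signal of the Kupffer markers lay between 4.15 and 4.57 on casein and between 3.97 and 4.93 on soybean. Of 5 bile duct markers, Epcam fell and Krt19 differed in the other direction. Epcam, an epithelial adhesion protein, read 2.59, 3.19, 2.54, 2.93 and 2.86 on casein and 1.5 to 2.53 on soybean, a fall of 0.76 (SE 0.13, limma, adjusted p = 0.00319). Krt19 differed by 0.97 (SE 0.24, adjusted p = 0.0391), a call lost in 10 of 20 omissions and without the 2 arrays of higher minimum (adjusted p = 0.126). The mean of the 5 duct markers was 2.10 on casein and 2.19 on soybean. Of 3 neutrophil markers Camp differed by 0.80 (SE 0.21, adjusted p = 0.0455), lost in 15 of 20 omissions and without the 2 arrays of higher minimum (adjusted p = 0.15).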

How the data were processed

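Per the labels' protocols, total RNA of 20 livers was labelled by 3′ in vitro transcription. The authors deposited 1 table of values normalized with the SuperNORM data service, per the labels; the sources used here do not give how probes were summarized. The deposited values were taken as log10 signals, a base inferred from spike-in controls, whose slope was 0.997 (SD 0.024) against amounts known from general knowledge of this array. They were multiplied by 3.3219 to give log2 values. Depth does not apply to arrays, and their number limits the precision.

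Of 31099 probe sets, 57 controls and 3342 without values (2 in both) were left out. The platform annotation gave 1 symbol for 19147 of the 27702 tested, several for 404 and none for 8151. Gene lists held 660 symbols, of which 93 were not matched and are not analysed here. No arrays were identical (0 pairs).

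limma 3.58.1 in R 4.3.3 fitted 1 mean per diet over 20 arrays with eBayes and trend. Benjamini-Hochberg adjustment ran over all tested probe sets, two-sided, and every adjusted p in the text is limma's unless a permutation test is named. The script was tested on simulated data. Genes named were the 10 highest and 10 lowest stable, non-overlapping calls, up to 4 calls per list, up to 8 also called by the F-test, and the 5 most even of 2-fold or more; regulators, markers and remaining list members are given with values only. The members and lists were chosen with earlier results of these data known. Array titles were paired with diets by wording. Alternatives covered scaling, spread model, filters, pooling, probe set choice and omitted arrays.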

Additional observations from a re-analysis of the deposited data

Results flagged for a closer look

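Among the named genes, 18 of 256 groups of 5 rats (7.03%) held a rat far from the others of its diet by Dixon's criterion, where chance alone gives about 1 in 20. Casein replicate 1 was lowest of its group in Acaca (5.73, next 6.4), Pgd (5.78, next 6.28), Me1 (4.82, next 6.38) and Sc5d (5.89, next 6.15). Without it 505 probe sets were called. Conventional diet replicate 3 was lowest in Fads2 (5.05), Me1 (1.80, next 4.49), Pmvk (3.94) and Plin3 (3.56). On the 3:1 diet, replicate 4 was lowest in Pmvk (3.98) and Secisbp2l (3.10) and highest in Edil3 (3.0), and replicate 3 was highest in Me1 (5.88, next 4.65). On the 1:1 diet, replicate 3 was highest in Pgd (5.35), replicate 2 highest in Ccdc9 (2.90) and lowest in 4930522L14Rikl (0.86, next 1.51), replicate 5 highest in Fabp2 (2.33) and replicate 1 lowest in Krt19 (1.09, next 2.24). Conventional diet replicate 5 was lowest in Timm8b (4.12).

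The effects of the 3 soybean diets differed by limma's F-test in Cox7b2 (adjusted p = 0.000484), Polr2k (0.0120), 4930522L14Rikl (0.0140), Cox7b (0.0140), Sub1 (0.0282), Trappc2b (0.0302), Slirp (0.0325) and Timm8b (0.0336).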

How the results depend on the processing

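Against 593 calls as reported, omission of 1 array gave 230 to 719 (higher 131 to 449, lower 99 to 270), and the casein arrays set the low end: 317 without casein replicate 2, 312 without replicate 4 and 230 without replicate 5. Without the 2 arrays of higher minimum there were 212 calls, 121 higher and 91 lower. Estimated array weights gave 937, with 579 higher and 358 lower. Centring and scaling gave 217 higher and 469 lower, and centring alone, added after the data were seen, 220 higher. The replicate block, a paired fit on the rat numbers, gave 718 calls. Over 30 same-numbered pairs the deviations from the diet means correlated at a mean r of 0.067, with 12 above 0.1. Over 120 different-numbered pairs the mean r was -0.0167, with 16 above 0.1. By number, the mean r lay between -0.03 and 0.07 for numbers 2 to 5. The 6 pairs of number 1 differ from this, at r = 0.203 to 0.401; what these 4 rats share was not tested. The F-test among soybean diets, with 11 calls as reported, gave 3 to 32 over omissions, 23 after quantile normalization, 5 after centring and scaling, 4 without the spread trend, 18 without the 2 arrays of higher minimum and 1 without number 1 of all diets. The cause of these shifts was not tested. Of 64 named probe sets, 36 kept their call in every alternative but centring alone and 28 lost it in at least 1; over 31 alternatives none turned its direction, and 124 of the refitted values missed the threshold where 1860 did not. With 5 casein rats, small differences are limited by the casein spread.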

Other observations

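Some of the largest pooled changes lay in genes of no list whose ranges overlapped between casein and soybean; they were chosen after their values were seen. Spink1, a trypsin inhibitor of secretory cells, differed by -2.04 (SE 0.41, limma, adjusted p = 0.00963) and by -2.0 (adjusted p = 0.0111) in its 2 probe sets, with means of 4.17 on casein and 2.13 on soybean in the first. None of 7 pancreas markers passed limma. Commd6 fell by 1.67 (SE 0.24, adjusted p = 0.000963) and Atp5if1, the inhibitor of the mitochondrial ATP synthase, by 2.48 (SE 0.49, adjusted p = 0.00954). The Atp5if1 probe set can read related transcripts. Its means were 3.71 on casein and 1.23 on soybean, the latter below the median signal of every array. On the other side Gdf11, related to myostatin, rose by 1.71 (SE 0.30, adjusted p = 0.00361) and Myo16, an unconventional myosin, by 1.59 (SE 0.26, adjusted p = 0.00301).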
